A study of Mus musculus with 12 samples.

Results

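ITNK cells were compared with DN3 thymocytes, the T cell precursors they are made from, on Illumina mouse bead arrays. The comparison used the arrays titled ITNK (4) and DN3 (4), which are 8 of the 12 arrays of the series, and all 12 entered 1 model so that the groups shared an estimate of the spread. ITNK cells are natural killer-like cells obtained from T cell precursors by deleting Bcl11b, a transcription factor of the T lineage. DN3 cells are CD4- and CD8-negative thymocytes at the stage where the T cell receptor beta gene is rearranged. Per the labels' protocols, thymocytes of mice with both Bcl11b alleles flanked by loxP (Bcl11b flox/flox) and the tamoxifen-inducible recombinase Cre-ERT2 received 1 µM 4-hydroxytamoxifen for 48 h in medium with Flt3 ligand and IL-7. DN3 cells were then sorted, kept on OP9-DL1 with 100 ng/ml IL-2 and collected 14 days after the treatment. OP9-DL1 are stromal feeder cells that carry Delta-like 1, a ligand of Notch. The same protocol text stands on every sample, so it is not known here whether the DN3 arrays hold fresh, cultured or tamoxifen-treated cells, or cells that carry the floxed alleles. Loss of Bcl11b, culture, IL-2 and time therefore cannot be told apart between the groups. The strain labels differ between ITNK and DN3 (C57B6 and C57B7), and a strain difference cannot be told apart from the group either. Separate animals or cultures are not stated for the replicates of either group, so a p-value here covers no more than the array-to-array spread, which may be technical.

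Between a T cell precursor and a killer cell, more changes than the receptors and granules that define each lineage. Dividing thymocytes draw on nucleotide synthesis and salvage, glycine and folate chemistry and a large set of chromatin regulators. A killer lymphocyte moves, adheres and secretes, which needs actin remodelling, motor proteins, vesicle tethers and a secretory pathway that folds membrane and granule proteins. The genes described here belong to those functional classes rather than to the natural killer and T lineage lists.

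Each of the 8 arrays detected 11964 to 13141 of 45274 probes at a detection p under 0.01. The number of arrays, rather than any read depth, limits the precision. After background correction and quantile normalization, 8100 genes were tested with limma on the log2 scale. A gene passed at a Benjamini-Hochberg adjusted p under 0.05, and "rose" or "fell" below means that it passed. Of the 8100 genes, 4184 passed (51.7%). In ITNK 1903 genes rose (23.5%) and 2281 fell (28.2%), 597 of them by at least 2-fold upward (7.37%) and 458 by at least 2-fold downward (5.65%), 1055 in all (13.0%). The ITNK and DN3 arrays did not overlap for 3874 genes (47.8%), with ITNK higher for 1770 (21.9%) and lower for 2104 (26.0%). As an alternative to quantile normalization, each array was scaled to the median of all its probes (median scaling). Most probes were not detected, so that median lies among undetected probes. The median difference over all genes then moved from -0.045 to 0.19 (log2), and the counts became 2629 higher and 1011 lower. The share of calls that were higher moved with it from 45.5% to 72.2%. Small differences thus take their direction from the scaling, and medians of gene lists are also given relative to the median of all genes. In bulk RNA, fewer cells of a type and less RNA per cell cannot be told apart. A difference also rests on a level near background where a gene was detected on only 1 or 2 arrays of its dimmer group, which besides those marked below holds for Slc2a6, Ttll3, Cdkn2a, Pdia5, Ctsa, Gcnt2, Capn2, H2-Ab1 and Sox9.

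The slides were uneven. Slide 1 held ITNK 1 and 2 with the 4 arrays of LAK cells (IL-2-expanded natural killer cells, the third group of the series), and slide 2 held ITNK 3 and 4 with all DN3 arrays. The median raw signal was 71.4 and 71.5 on the ITNK arrays of slide 1 and 58.9 to 63.3 on slide 2. Within slide 2 alone, 3666 genes passed (45.3%), with 1708 higher (21.1%) and 1958 lower (24.2%). Of the 216 genes chosen for naming, 214 passed in the same direction within slide 2, and the exceptions were the proteasome assembly factor Psmg1 and the ribosomal protein Rps15a. List members were chosen at no overlap on slide 2 unless none reached 2-fold. This count, and the lack of overlap given for named genes below, were therefore largely fixed by the choice. They are no check on the slides.

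**Figure D1:**
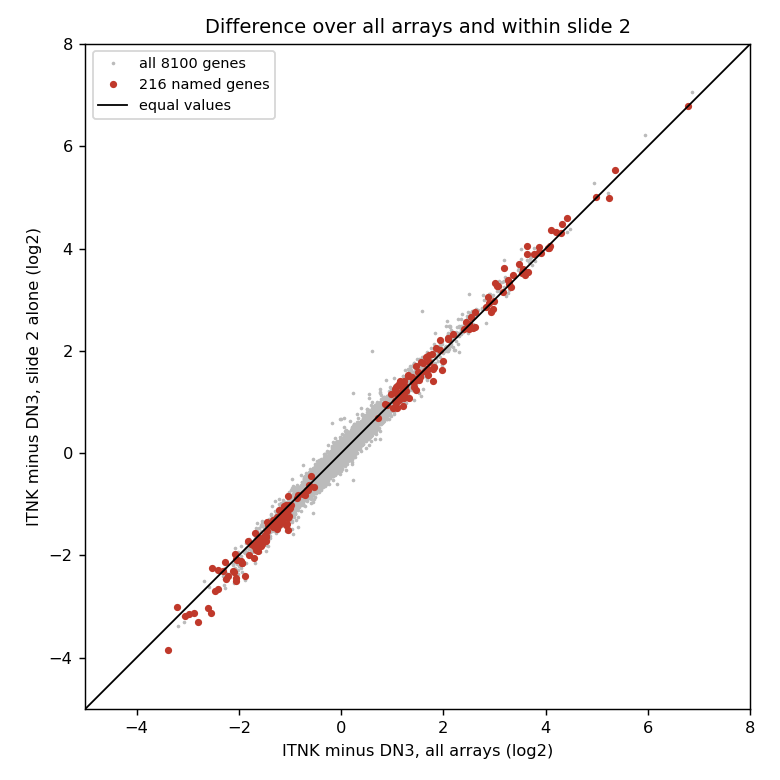
Difference between ITNK and DN3 for each of 8100 genes (log2), with the fit over all 12 arrays on the x axis and slide 2 alone on the y axis. Red points are the 216 named genes and the line marks equal values. Upp1, the named gene farthest to the right, lies at 6.77 over all arrays and 6.79 within slide 2.

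The arrays carried the lineage genes of their labels with some gaps. Bcl11b stood at 9.10, 8.49, 8.38 and 8.39 on ITNK arrays 1 to 4 and at 11.85, 11.41, 11.92 and 11.89 on DN3 arrays 1 to 4, a difference of -3.18 ± 0.20 (log2, SE). Whether the probe lies in the deleted part of the gene was not determined here, so the value does not by itself show deletion. Of 11 tested DN3 markers 8 fell in ITNK and none rose, and Rag2, a defining gene of the stage, was detected on no array. Il2ra, the CD25 chain that marks DN3 cells, differed by 0.08 ± 0.19. All 12 tested natural killer markers rose, while Ncr1 and Gzmb were detected on no array of the comparison. The summed signal of the tested natural killer markers was 19555 to 25831 on ITNK arrays and 1278 to 2016 on DN3 arrays.

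Markers of other cell types also moved with the groups. Of 24 stromal markers 16 were tested, 11 fell in ITNK, and Timp3 (2.21) and Ccn2 (2.19) rose. Their summed signal on DN3 arrays 1 to 4 was 7408, 2257, 3454 and 6019, against 1561 to 2450 on the ITNK arrays, so DN3 2 lay within the ITNK range. Of the 16 tested markers 13 were detected on all 4 DN3 arrays and 9 on all 4 ITNK arrays. The collagens Col1a1, Col5a1, Col6a1 and Col6a2 were among those tested, while Col1a2 and Col3a1 were detected on no array of either group. Pdgfrb, below the filter, was detected on 3 DN3 arrays and on no ITNK array. With DN3 1 and 4 left out, 3184 of 8100 genes passed, and 214 of the 216 named genes still passed in the same direction. The exceptions were Mcm7 and Pgls. The alpha globin Hba-a1 was the single erythroid marker tested and rose by 2.91, although the beta globin probes were detected on no array. Of 9 mast cell markers 4 were tested and 2 rose, Kit by 1.44 and Cpa3 by 0.96, while Cma1 and Hdc did not pass. Within slide 2, and with DN3 1 and 4 left out, 1 of the 4 rose. The summed signal of the 4 was 1100 to 1797 on ITNK arrays and 414 to 746 on DN3 arrays. The mast cell protease genes Mcpt4 and Tpsb2 went the other way, detected on no ITNK array but on 2 and 1 DN3 arrays. The part of stromal, erythroid or mast cell RNA in the results below was not tested.

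**Figure D2:**
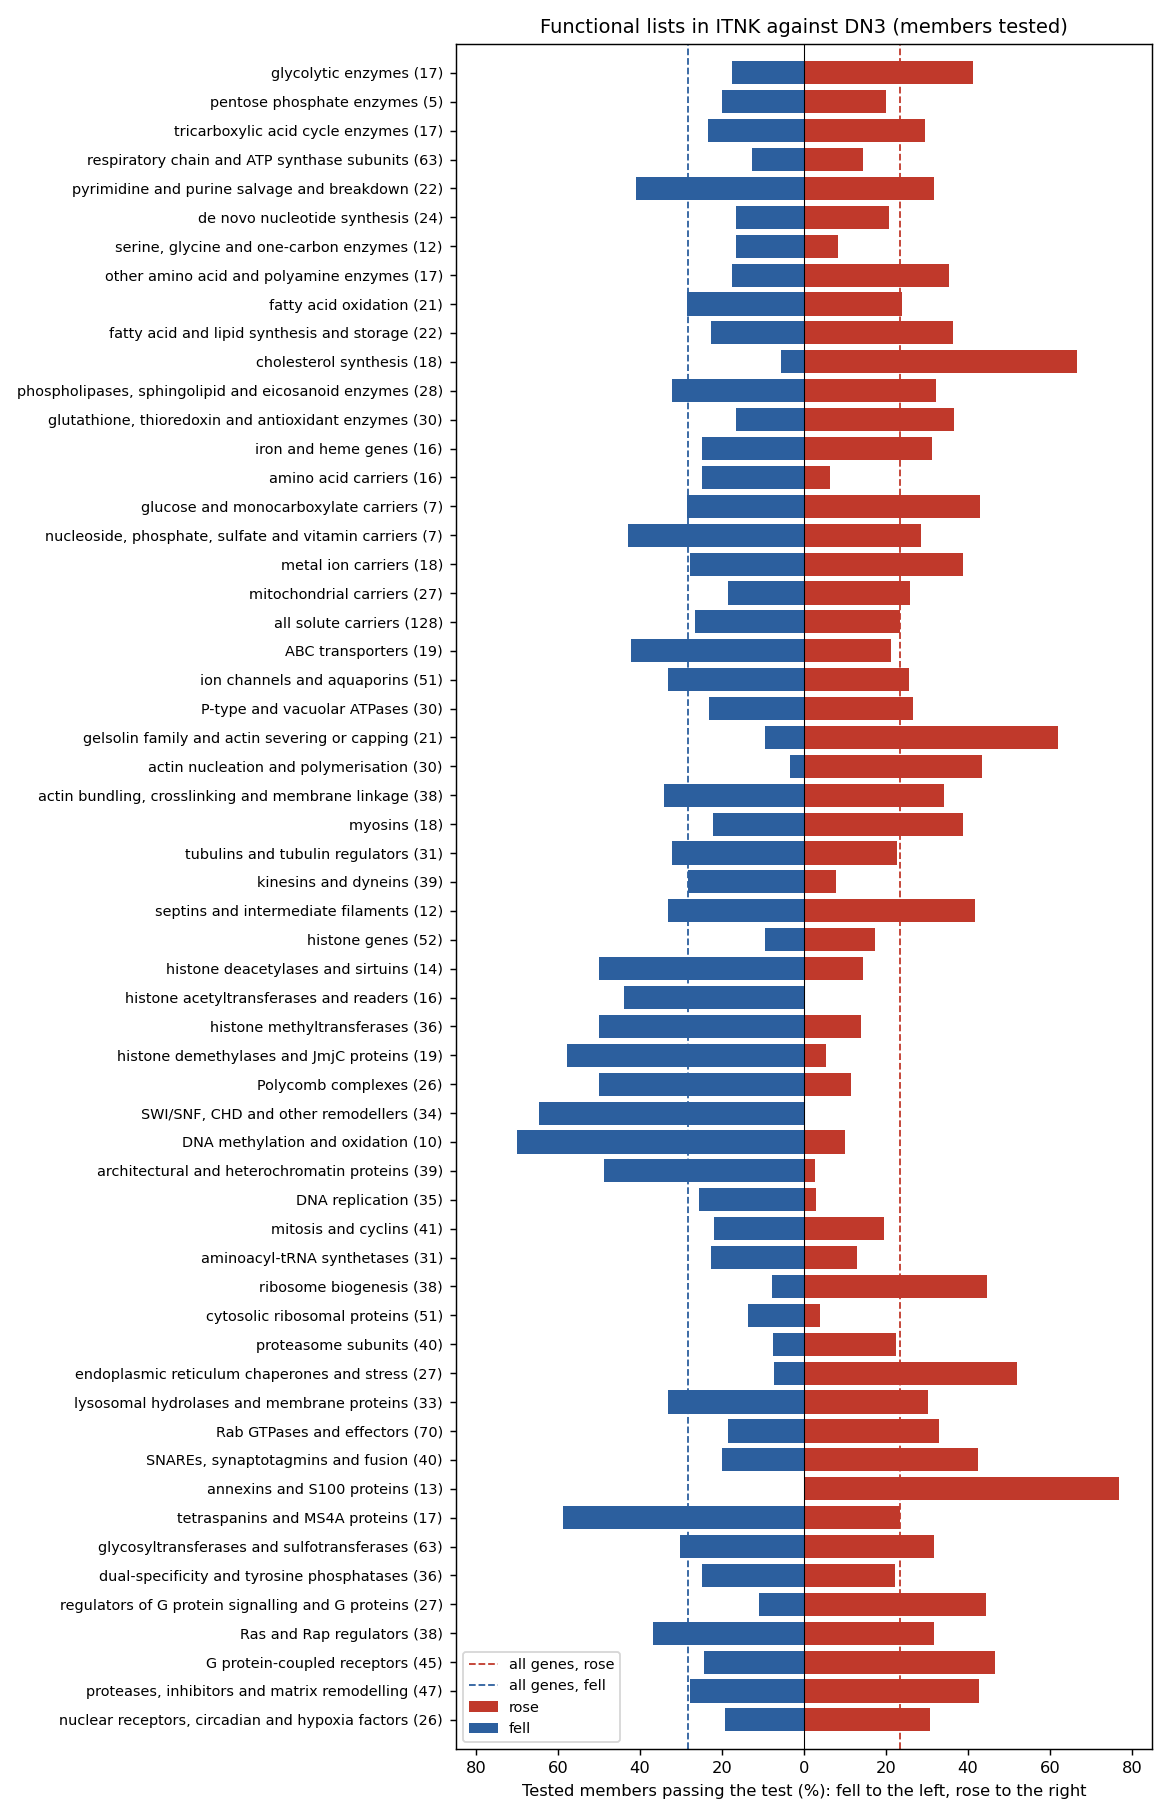
Share of tested members that rose (red, to the right) or fell (blue, to the left) in ITNK against DN3, in percent, for the functional lists with the number of members tested in parentheses. Dashed lines give the shares over all genes, 23.5% rose and 28.2% fell. Cholesterol synthesis, the gelsolin family, endoplasmic reticulum chaperones and the annexin and S100 list extend farthest beyond the red line, and most chromatin lists extend beyond the blue one.

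Nucleotide salvage and breakdown held the gene with the largest rise in any functional class. Upp1, uridine phosphorylase, which splits uridine into uracil and ribose phosphate, stood at 11.73, 11.85, 11.94 and 11.69 on ITNK arrays and at 4.80, 5.11, 5.64 and 4.56 on DN3 arrays. All ITNK arrays were far above all DN3 arrays, of which DN3 3 was the highest. The difference was 6.77 ± 0.20 (log2, SE; 109-fold; adjusted p = 3.26e-11), and the other probes of the gene gave 5.88 and 5.52. Since the gene was detected on 2 of the 4 DN3 arrays, the fold rests on a DN3 level near background.

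Enzymes that act on adenosine moved in both directions. Nt5e, the ecto-enzyme CD73 that releases adenosine from AMP, read 8.98, 8.92, 8.78 and 9.19 in ITNK and 5.11, 5.58, 6.56 and 5.49 in DN3, a rise of 3.28 ± 0.25, with 1.14 at a second probe. Ada, which deaminates adenosine and is abundant in thymocytes, read 5.49, 5.38, 5.19 and 5.27 in ITNK and 7.17, 7.06, 6.69 and 6.85 in DN3, and fell by 1.61 ± 0.16. The groups did not overlap for either gene. Adk, adenosine kinase, fell by 1.21 at its brightest probe, but its other probes gave 0.30 and -0.60, so its direction depends on the probe. Samhd1, which degrades deoxynucleotides, rose by 1.98, with 0.98 at a second probe. Over the list, 7 of 22 tested genes rose and 9 fell.

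Synthesis of nucleotides and glycine showed single large falls rather than a shift of the lists. Gldc, the decarboxylase of the mitochondrial glycine cleavage system, read 5.09, 4.76, 4.42 and 4.74 in ITNK and 7.78, 8.62, 6.70 and 7.81 in DN3. It was detected on 1 of 4 ITNK arrays and fell by 2.98 ± 0.29 (adjusted p = 1.44e-06). Shmt2, the mitochondrial enzyme that makes glycine from serine, fell by 1.00, but its other probe gave -0.02. Adssl1, an adenylosuccinate synthetase of the purine nucleotide cycle, fell by 1.43. In all, 2 of 12 serine, glycine and folate genes fell and 1 rose, and 4 of 24 genes of de novo nucleotide synthesis fell and 5 rose.

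Glycolysis was higher in part. Of 17 tested glycolytic enzymes 7 rose (41.2%) and 3 fell (17.6%), against 23.5% and 28.2% of all genes. The median difference was 0.19 (0.23 relative to all genes). The aldolases Aldoc (1.79 ± 0.39) and Aldoa (1.21 ± 0.21) led, and Pgk1 rose by 1.01 at its brightest probe while its other probe gave 0.00. Aldoc varied most among the ITNK arrays, at 7.32, 8.11, 6.74 and 8.09 against 5.49 to 6.10 in DN3. Pfkm, a phosphofructokinase, fell by 1.01, and its other probes gave -1.18 and 0.05.

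Mitochondrial energy genes moved little as groups. Of 63 tested subunits of the respiratory chain and ATP synthase 9 rose and 8 fell, with a median of 0.01. With median scaling 38 rose and 1 fell, so the direction of this group is set by the scaling. The exception in size was Cox6a2, a cytochrome oxidase subunit best known from heart and skeletal muscle. Cox6a2 read 5.88, 7.74, 5.18 and 6.59 in ITNK and 8.63, 10.79, 10.21 and 9.30 in DN3, and fell by 3.38 ± 0.54 (10.4-fold; adjusted p = 0.000146; -3.85 within slide 2). The groups did not overlap, although arrays within each group differed by more than 2 log2 units. Cox7a1, another muscle-type subunit, rose by 1.23. In the tricarboxylic acid cycle 5 of 17 genes rose and 4 fell, the largest falls being Idh2 (-0.97) and Pdha1 (-0.74), the second of which did not pass with median scaling (-0.34, limma adjusted p = 0.0675). The counts for this cycle were 1 higher and 3 lower within slide 2 and with DN3 1 and 4 left out, and those for the respiratory chain were 5 and 4 with those DN3 arrays left out.

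Lipid metabolism held the most one-sided metabolic list. Of 18 tested genes of cholesterol synthesis and its control 12 rose (66.7%) and 1 fell (5.56%), against 23.5% and 28.2% of all genes. The median was 0.54 (0.58 relative to all genes, and 0.60 with median scaling). Cyp51, which demethylates lanosterol, read 8.79, 8.51, 9.13 and 8.81 in ITNK and no higher than 7.36 on any DN3 array, a rise of 1.61 ± 0.13. Mvk, mevalonate kinase, rose by 1.14 and Hsd17b7 by 1.06, and the list's single fall was the last enzyme of the pathway, Dhcr7 (-0.69). Within slide 2, and with DN3 1 and 4 left out, the counts were again 12 and 1.

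Other lipid genes were mixed. Eci1, which prepares unsaturated fatty acids for mitochondrial oxidation, read 7.60, 7.77, 7.84 and 7.67 in ITNK against 5.16, 4.84, 5.46 and 5.46 in DN3 and rose by 2.49, while the oxidation list as a whole had 5 of 21 genes up and 6 down. Fads3, a member of the fatty acid desaturase family, was detected on no DN3 array and was at least 3.19-fold higher in ITNK. Elovl1 (1.17) and Agpat2 (1.08), which elongate and esterify fatty acids, rose. Plcg2, the phospholipase C that follows immune receptors in natural killer and B cells, rose from 7.38 to 7.70 on DN3 arrays to 10.00 to 10.41 on ITNK arrays, a difference of 2.62. Pld4, an endolysosomal nuclease of the phospholipase D family, fell by 2.79, from 9.44 to 9.92 down to 6.37 to 7.52. Within the ITNK group Pld4 was higher on slide 1 (7.52 and 7.38) than on slide 2 (6.37 and 6.46), and the difference within slide 2 was -3.31. Asah1 and Degs1, enzymes of ceramide breakdown and synthesis, rose by 1.40 and 1.18. Lpl, lipoprotein lipase, was detected on no ITNK array and read 7.71, 5.87, 5.80 and 7.10 in DN3, at least 4.18-fold lower in ITNK, with the 2 highest values on the DN3 arrays with most stromal signal.

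Antioxidant genes rose more often than they fell, while metal genes were mixed. Of 30 glutathione, thioredoxin and antioxidant genes 11 rose (36.7%) and 5 fell (16.7%), against 23.5% and 28.2% of all genes. Srxn1, sulfiredoxin, which repairs oxidised peroxiredoxins, was at least 4.02-fold higher in ITNK and detected on no DN3 array, with 0.98 (log2) at its other probe, and Nqo1, a quinone reductase, was at least 2.12-fold higher. Prdx4, the peroxiredoxin of the endoplasmic reticulum, rose by 1.11. Txnip, the inhibitor of thioredoxin that also restrains glucose uptake, fell by 1.48. Of 18 metal ion carriers 7 rose and 5 fell (4 and 5 with DN3 1 and 4 left out), and of 16 iron and heme genes 5 rose and 4 fell. Slc39a4, a zinc importer of the plasma membrane, read 8.48, 8.61, 8.68 and 8.84 in ITNK and 5.39, 5.69, 5.53 and 4.92 in DN3 and rose by 3.27 ± 0.17 (9.65-fold). The zinc-binding metallothionein Mt1, whose probe may also bind its near-identical relatives, rose by 1.92, and the ferritin light chain Ftl1 by 1.15.

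Transporters as a class did not lean either way. Of 128 tested solute carriers 30 rose (23.4%) and 34 fell (26.6%), shares close to those of all genes. Single carriers nonetheless differed strongly. Slc2a6, a hexose carrier of lysosomal membranes, read 8.68, 8.73, 8.56 and 8.81 in ITNK and 4.97, 5.36, 5.46 and 4.82 in DN3, a rise of 3.54 ± 0.22 (adjusted p = 2.6e-08). Slc52a3, a riboflavin transporter, was detected on no DN3 array and was at least 11.2-fold higher. Slc16a5, a member of the monocarboxylate carrier family, went the other way, at 7.06, 6.72, 6.42 and 6.42 in ITNK against 9.48, 9.53, 9.50 and 9.64 in DN3, a fall of 2.88 ± 0.13 (7.38-fold). None of these carriers overlapped between the groups. Slc5a9, a sodium-coupled sugar carrier, fell by 2.54, and its ITNK values were higher on slide 1 (6.04 and 6.31) than on slide 2 (5.14 and 4.90). The equilibrative nucleoside transporters Slc29a1 (-1.50) and Slc29a3 (-1.15) and the amino acid carrier Slc43a1 (-1.67) fell, while the thiamine transporter Slc19a2 (1.50) rose.

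**Figure D3:**
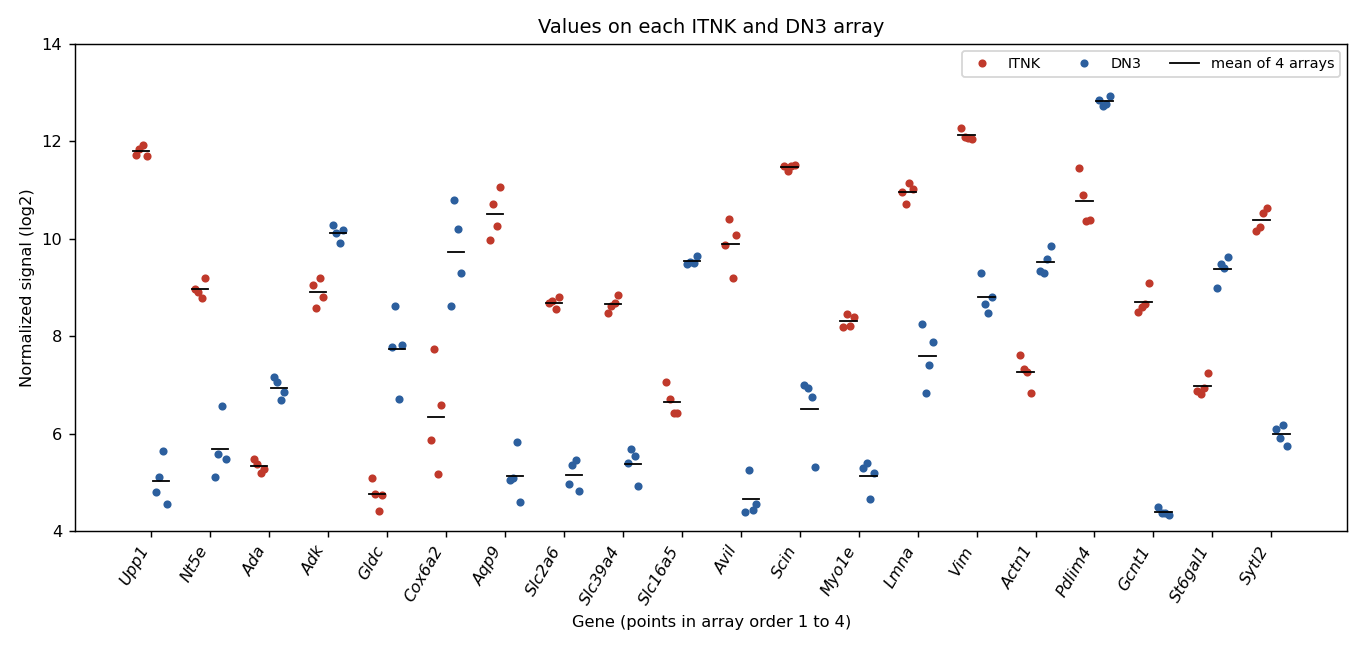
Normalized signal (log2) of 20 named genes on the 4 ITNK (red) and 4 DN3 (blue) arrays, in array order 1 to 4 from left to right within each group, with a line at the mean of the group. The groups do not overlap for any of the genes shown, which the naming rule favoured. The same holds for 47.8% of all genes. Cox6a2 has the widest spread within a group.

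Channels included the second largest rise outside the lineage lists. Aqp9, an aquaporin that also passes glycerol and urea, read 9.97, 10.71, 10.27 and 11.07 in ITNK and 5.04, 5.08, 5.84 and 4.60 in DN3, a difference of 5.36 ± 0.29 (41.2-fold; adjusted p = 6.39e-09). It was detected on 2 of 4 DN3 arrays. Trpm6, a magnesium channel fused to a kinase, was at least 7.09-fold higher in ITNK (2.67 on the log2 scale at a second probe), and the proton channel Hvcn1 rose by 1.80. Aqp11, an aquaporin of intracellular membranes, fell by 2.10. Tpcn1, a cation channel of endosomes and lysosomes, read 8.38, 8.09, 7.85 and 7.98 in ITNK and 9.92, 9.99, 10.15 and 10.05 in DN3 and fell by 1.95. The calcium channel subunit Cacna1d fell by 1.89. Over 51 channels and aquaporins 13 rose and 17 fell. Fxyd4, a small regulator of the sodium pump, was at least 12.2-fold higher in ITNK, with 2.40 (log2) at a second probe. Among ABC transporters 4 of 19 rose and 8 fell, with Abcb1b, a drug exporter, up by 1.30 and Abca3, a lipid exporter, down by 1.62.

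Actin-severing and capping proteins were higher in ITNK as a group and by large amounts. Of 21 tested genes 13 rose (61.9%) and 2 fell (9.52%), against 23.5% and 28.2% of all genes. The median was 0.40 (0.44 relative to all genes). The 3 largest rises belonged to the gelsolin family, whose members cut and cap actin filaments when calcium rises. Avil, advillin, read 9.88, 10.41, 9.19 and 10.09 in ITNK and 4.38, 5.26, 4.44 and 4.55 in DN3, a rise of 5.23 ± 0.28 (37.6-fold), with detection on 1 of 4 DN3 arrays. Scin, scinderin, read 11.50, 11.40, 11.50 and 11.51 against 6.99, 6.94, 6.75 and 5.32, a rise of 4.98 ± 0.31. Capg, which caps filaments without cutting them, rose by 2.40 (10.85 to 10.96 against 8.23 to 8.62), and by 0.45 at a second probe. None of these genes overlapped between groups, and DN3 4 was the lowest array for Scin.

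Other parts of the actin machinery differed by list. In the nucleation and polymerisation list 13 of 30 genes rose (43.3%) and 1 fell (3.33%), against 23.5% and 28.2% of all genes. Among the rises were Arp2/3 subunits such as Arpc1b (0.78), with the formin Fmnl2 the largest (at least 2.16-fold higher). Crosslinkers and membrane linkers split evenly, with 13 of 38 up and 13 down, 4 and 8 of them by at least 2-fold. Actn1, the crosslinker alpha-actinin, read 7.63, 7.33, 7.26 and 6.84 in ITNK and 9.35, 9.31, 9.58 and 9.84 in DN3 and fell by 2.25 ± 0.17. Pdlim4, which binds alpha-actinin through its PDZ domain, fell by 2.05, from 12.72 to 12.94 down to 10.36 to 11.44. The relatives with the same domains, Pdlim7 (1.71) and Pdlim5 (1.32), rose. Marcks, which links actin to the membrane under the control of protein kinase C, fell by 1.56, and Prkcb, a kinase of that family, fell by 2.46 from 10.23 to 10.62 down to 7.50 to 8.41.

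Of 18 myosin genes 7 rose and 4 fell, and the 3 largest rises were class I myosins, single-headed motors that tie actin to membranes. Myo1e read 8.20, 8.45, 8.20 and 8.39 in ITNK and 5.29, 5.41, 4.65 and 5.20 in DN3, a rise of 3.17 ± 0.16 (9.02-fold). Myo1f read 9.16, 8.91, 9.15 and 9.03 against 5.66, 6.44, 6.56 and 6.26, a rise of 2.83 ± 0.16. Myo1g rose by 1.38. Myo6, the motor that walks toward the minus end, fell by 1.60.

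Of 12 septin and intermediate filament genes 5 rose and 4 fell. Lmna, the gene of lamins A and C, read 10.95, 10.71, 11.14 and 11.02 in ITNK and 8.25, 6.84, 7.40 and 7.89 in DN3, a rise of 3.36 ± 0.25 (10.3-fold), with 1.04 to 3.65 at its other probes. The B-type lamins Lmnb2 (-0.92) and Lmnb1 (-0.51) fell, the second of them by a step small enough that the scaling sets its call. Vim, vimentin, read 12.28, 12.09, 12.07 and 12.05 against 9.29, 8.65, 8.47 and 8.81 and rose by 3.32 ± 0.17. Both genes are also abundant in stromal cells, and both were higher on DN3 1 than on the other DN3 arrays. Every ITNK array was above every DN3 array for both genes. The large scaffold protein genes Plec (1.10) and Ahnak (1.66, and 0.64 to 2.83 at other probes) rose as well.

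Microtubule genes fell about as often as genes in general, but the motors rose less often. Of 39 kinesin and dynein genes 3 rose (7.69%, against 23.5% of all genes) and 11 fell (28.2%). Their median relative to all genes was -0.12 under both scalings. Of 31 tubulins and tubulin regulators 7 rose (22.6%) and 10 fell (32.3%). With median scaling the counts were 5 and 7 for the motors and 10 and 5 for the tubulin list. Tubb2b, the beta-tubulin best known from neurons, fell by 1.62, with falls of 0.66 to 1.05 at its other probes. Tubb6 (1.86) and Tuba8 (at least 3.35-fold higher, and 1.34 on the log2 scale at a second probe) rose. Enzymes that add amino acids to tubulin tails split, with Ttll5 up by 1.96 and Ttll4 and Ttll3 down by 1.30 and 1.16.

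Chromatin regulators fell more often than they rose in each list except the histone genes. Among the 34 tested SWI/SNF, CHD and other remodelling subunits 22 fell (64.7%) and none rose. Of 36 histone methyltransferases 18 fell and 5 rose, of 19 histone demethylases and JmjC proteins 11 fell and 1 rose, and of 39 architectural and heterochromatin proteins 19 fell and 1 rose. Of 10 genes of DNA methylation and oxidation 7 fell and 1 rose, of 26 Polycomb genes 13 fell and 3 rose, of 16 acetyltransferases and readers 7 fell and none rose, and of 14 deacetylases and sirtuins 7 fell and 2 rose. Across these lists the share that fell was 43.8% to 70.0% and the share that rose at most 14.3%, against 28.2% and 23.5% of all genes. The steps were small, with list medians of -0.30 to -0.48. With median scaling those medians were -0.04 to -0.21 while all genes lay at 0.19, and the falling counts dropped to 9 of 34 remodellers and 8 of 36 methyltransferases. Relative to all genes the list medians were -0.26 to -0.43 under quantile normalization and -0.23 to -0.40 under median scaling. The lists were thus below the bulk of genes under both scalings, while how many members are called lower depends on where zero is placed.

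The larger falls in this class did not depend on that choice. Kmt2a, the histone H3 lysine methyltransferase MLL1, read 9.81, 9.65, 9.86 and 10.09 in ITNK and 11.53, 11.37, 11.60 and 11.64 in DN3, a fall of 1.69 ± 0.13 (-1.22 with median scaling; -0.99 at a second probe). Setd1b (-1.26) and Kmt2c (-1.23), methyltransferases of the same family of complexes, fell with it. Mtf2, which recruits Polycomb repressive complex to DNA, read 10.38, 10.00, 9.90 and 9.80 in ITNK and 11.82, 11.74, 11.41 and 11.62 in DN3 and fell by 1.63 ± 0.14, with -1.71 and -1.59 at other probes. Ezh2, the methyltransferase of that complex, fell by 1.08. For all of these genes every ITNK array was below every DN3 array.

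Other readers and remodellers followed. Bcl7a, an accessory SWI/SNF subunit, fell by 1.62, Chd3 by 1.28 and Arid1a, a DNA-binding SWI/SNF subunit, by 1.18. The bromodomain protein Brd3 fell by 1.57, from 9.87 to 10.06 on DN3 arrays down to 8.07 to 8.63, and the acetyltransferase Kat6b by 1.34. Hdac7, a deacetylase known for its role in thymocyte survival, fell by 1.62 (7.69 to 8.33 against 9.52 to 9.76). Satb1, which organises chromatin loops in thymocytes, fell by 1.47, and Dnmt3b, a de novo DNA methyltransferase, by 1.13. Against this direction, the mitochondrial deacetylase Sirt3 rose by 1.23, the arginine methyltransferase Prmt2 by 1.24 and the ribosomal oxygenase Riox2 by 1.64 (0.77 at a second probe). Histone genes themselves differed little, with 9 of 52 up and 5 down. H1f2 rose by 1.72, H4c17 by 1.07 and H4c18 by 1.09 (0.28 at a second probe, which did not pass), but H4 copies are near-identical and can share probe signal, so which copy is measured is uncertain.

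**Figure D4:**
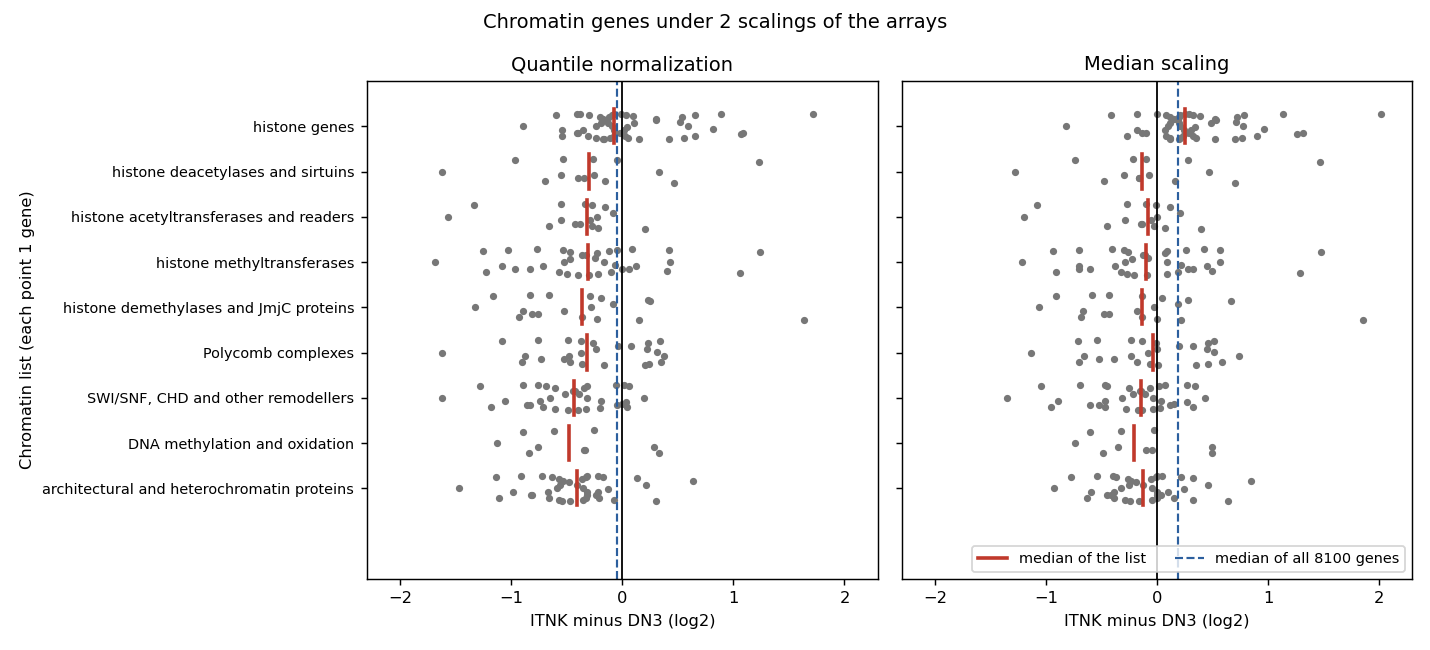
Difference between ITNK and DN3 (log2) for each tested member of 9 chromatin lists, with quantile normalization on the left and median scaling on the right. Each point is 1 gene, the red line is the median of the list and the dashed line the median of all 8100 genes (-0.045 and 0.19). The medians of all lists but the histone genes lie clearly left of the dashed line under both scalings, and fewer members lie left of zero on the right.

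The list of mitotic genes and cyclins had 8 of 41 up and 9 down, and its 3 largest rises were inhibitors of cyclin-dependent kinases. Cdkn2b, an inhibitor of Cdk4 and Cdk6, read 8.14, 8.91, 8.98 and 9.13 in ITNK and 5.29, 5.17, 4.91 and 5.27 in DN3, a rise of 3.63 ± 0.26. Cdkn2a, the Ink4a/Arf gene, read 7.94, 7.66, 8.42 and 8.46 against 5.96, 4.56, 4.66 and 5.29, a rise of 3.00, with 2.10 and 0.41 at other probes. Cdkn1a, an inhibitor of Cdk2, rose by 1.93. In DNA replication 9 of 35 genes fell (25.7%, near the share of all genes) and 1 rose (2.86%, against 23.5% of all genes). Of the 35 genes 31 differed by less than 0. The list median relative to all genes was -0.21 under quantile normalization and -0.19 under median scaling, so the list was below the bulk of genes under both. With median scaling none fell, and with DN3 1 and 4 left out 3 fell. The named members Mcm7 and Pold1 no longer passed with median scaling.

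Ribosome biogenesis genes rose more often than they fell. Of 38 ribosome biogenesis genes 17 rose (44.7%) and 3 fell (7.89%), against 23.5% and 28.2% of all genes. All rises were below 1 log2 unit, and the nucleolar protein Rrp12 fell by 1.02. Of 51 cytosolic ribosomal proteins 2 rose and 7 fell, and with median scaling 30 rose and none fell, so no direction is given for them. Of 40 proteasome genes 9 rose (22.5%, near the share of all genes) and 3 fell (3 and 1 with DN3 1 and 4 left out), led by the activator subunit Psme2 (0.85).

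Chaperones and folding enzymes of the endoplasmic reticulum were mostly higher. Of 27 tested genes 14 rose (51.9%) and 2 fell (7.41%), against 23.5% and 28.2% of all genes. The median was 0.44 (0.48 relative to all genes, and 0.66 with median scaling). With DN3 1 and 4 left out 11 rose and 2 fell. Pdia5, a disulfide isomerase, read 6.99, 7.47, 7.43 and 7.53 in ITNK and 5.08, 5.12, 5.78 and 4.66 in DN3 and rose by 2.20 ± 0.23. Sdf2l1, a partner of the chaperone BiP, read 9.16, 8.45, 9.18 and 8.70 against 7.49, 7.45, 7.34 and 7.17 and rose by 1.51. Pdia4 rose by 1.15 with complete separation of the groups. The 2 falls were Atf5, a transcription factor of the stress response (-1.30), and Edem1 (-0.89), both opposite to most of the list.

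Since many of these genes rose, the promoters of the list were searched for the endoplasmic reticulum stress element. It was written as CCAAT and CCACG with 9 bases of any kind between them. Both strands were searched in RefSeq windows of 300 bases (GRCm38.p6) around each gene's start. Of the 27 genes 26 matched a window by symbol. The element was present in 7 of 26 (26.9%), against 11 of 6648 tested genes with a window (0.165%) and 39 of 32851 windows in all (0.119%). The 11 include the 7 of the list. This excess follows from which genes are on a list of stress and folding genes, not from their change in ITNK, so it is no result of the arrays. It was found in 4 of 13 genes that rose and in 3 of 13 that did not, so its presence did not separate the members by their change. A match is a description of the letters and not a binding site. The 4 that rose are shown because they carry the element and rose together, with the element in capitals. Hsp90b1, the chaperone GRP94, has it once on each strand, and the others have it once on the reverse strand. The windows lie at chr10:86705395-86705694 on the minus strand for Hsp90b1, chr8:84846882-84847181 on the minus strand for Calr, chr13:12565633-12565932 on the plus strand for Ero1b and chr15:88819396-88819695 on the plus strand for Creld2, each printed 5′ to 3′ along its gene.
Hsp90b1: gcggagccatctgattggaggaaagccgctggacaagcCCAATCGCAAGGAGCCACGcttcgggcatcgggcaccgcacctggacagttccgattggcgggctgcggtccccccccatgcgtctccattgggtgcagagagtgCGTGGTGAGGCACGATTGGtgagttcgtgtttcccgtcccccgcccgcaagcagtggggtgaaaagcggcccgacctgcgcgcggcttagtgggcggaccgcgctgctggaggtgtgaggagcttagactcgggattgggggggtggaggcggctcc
Calr: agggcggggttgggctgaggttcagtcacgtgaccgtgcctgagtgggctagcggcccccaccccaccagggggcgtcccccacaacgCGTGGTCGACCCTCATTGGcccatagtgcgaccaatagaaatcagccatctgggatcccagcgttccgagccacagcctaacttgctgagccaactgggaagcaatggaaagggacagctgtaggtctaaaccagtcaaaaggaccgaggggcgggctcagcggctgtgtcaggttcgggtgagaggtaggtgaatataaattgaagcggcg
Ero1b: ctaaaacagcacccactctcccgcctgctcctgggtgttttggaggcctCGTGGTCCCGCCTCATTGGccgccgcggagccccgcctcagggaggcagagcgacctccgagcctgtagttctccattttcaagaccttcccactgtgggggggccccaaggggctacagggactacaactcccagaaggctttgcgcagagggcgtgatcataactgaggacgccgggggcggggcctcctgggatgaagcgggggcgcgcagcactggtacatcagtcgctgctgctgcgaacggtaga
Creld2: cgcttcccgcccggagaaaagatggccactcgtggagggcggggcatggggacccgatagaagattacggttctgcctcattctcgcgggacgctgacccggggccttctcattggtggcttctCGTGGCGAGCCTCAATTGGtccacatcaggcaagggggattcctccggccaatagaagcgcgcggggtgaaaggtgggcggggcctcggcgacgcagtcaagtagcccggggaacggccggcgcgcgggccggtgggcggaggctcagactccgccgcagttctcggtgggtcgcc
Hsp90b1 rose by 0.54 ± 0.16, the calcium-binding chaperone Calr by 0.78 ± 0.20, the oxidase Ero1b by 1.01 ± 0.19 and the secreted folding factor Creld2 by 1.09 ± 0.19. Ero1b read 5.98, 5.67, 6.29 and 5.85 in ITNK and 5.11, 5.12, 4.96 and 4.58 in DN3, and it was detected on 1 of 4 DN3 arrays. Creld2 read 8.54, 7.97, 8.82 and 8.13 against 7.23, 7.50, 7.11 and 7.23. In both genes the lowest ITNK array was above the highest DN3 array, whereas for Calr the groups overlapped (ITNK 2 at 8.25 and DN3 3 at 8.39). Pdia6, Dnajc3 and Syvn1 carry the element too and differed by -0.12, 0.26 and 0.12 without passing, although Dnajc3 and Syvn1 passed as higher with median scaling (0.51 and 0.47). A sterol regulatory element written TCACNCCAC was in none of the 15 cholesterol genes with a window and in 1.24% of all windows, which says only that these letters are not in those windows.

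Rab and SNARE genes rose more often than they fell, while other membrane lists did not. Of 70 Rab GTPases and effectors 23 rose (32.9%) and 13 fell (18.6%). Of 40 SNARE and fusion genes 17 rose (42.5%) and 8 fell (20.0%). Over all genes 23.5% rose and 28.2% fell. Rises of at least 2-fold made up 5.71% of the Rab list and 7.5% of the SNARE list, near the 7.37% of all genes. Sytl2, which tethers Rab27-bearing granules to the plasma membrane, read 10.17, 10.24, 10.53 and 10.63 in ITNK and 6.09, 5.92, 6.18 and 5.74 in DN3, a rise of 4.41 ± 0.13 (21.3-fold; adjusted p = 3.26e-11). Stx11, a syntaxin needed for granule release by killer cells, rose by 2.54 (7.35 to 7.77 against 4.69 to 5.56), with detection on 1 of 4 DN3 arrays. Stx7 rose by 1.31 and Rab4a, of recycling endosomes, by 1.69. Rab11fip4, an effector of another recycling Rab, fell by 1.94. Lysosomal genes split, with 10 of 33 up and 11 down. Arsb, arylsulfatase B, rose by 2.44 and Ctsa by 2.61 at its brightest probe, although the other Ctsa probes gave 0.38 and -0.08. Psap, the precursor of the saposins, fell by 1.11 and Lipa, lysosomal acid lipase, by 1.25.

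Calcium-binding annexins and S100 proteins were the list with the largest median difference among the functional lists, 1.53. Of 13 tested genes 10 rose (76.9%, against 23.5% of all genes) and none fell. S100a1 read 8.39, 8.46, 8.73 and 9.01 in ITNK and 5.83, 5.23, 5.71 and 5.61 in DN3 and rose by 3.05 ± 0.16. S100a4 rose by 2.57 and S100a6 by 2.49, each with complete separation, although S100a4 was detected on 1 of 4 DN3 arrays. Tetraspanins, which organise receptors in the membrane, fell more often than they rose. Of 17 genes of the tetraspanin and MS4A list 10 fell (58.8%) and 4 rose (23.5%), but 6 and 6 with median scaling. Over all genes 28.2% fell and 23.5% rose. Cd81 read 6.53 to 7.90 in ITNK and 9.73, 9.26, 9.48 and 9.93 in DN3 and fell by 2.41, while Cd9 read 9.44, 9.54, 9.68 and 9.51 against 6.33, 6.71, 7.16 and 6.42 and rose by 2.88. These close relatives thus moved in opposite directions on every array.

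Sugar-transferring enzymes of the Golgi changed in both directions, 20 of 63 up and 19 down, with 11 rises of at least 2-fold and 3 such falls. Gcnt1, which builds core 2 O-glycans, read 8.49, 8.59, 8.66 and 9.09 in ITNK and was detected on no DN3 array, at least 18.8-fold higher, the largest bound outside the lineage lists, with a difference of 3.67 (log2) at a second probe. B3gnt8, which extends N-glycans with lactosamine, read 9.34, 9.62, 9.49 and 9.94 against 5.54, 5.25, 5.79 and 4.99 and rose by 4.21 ± 0.27, with 2.24 at a second probe. Gcnt2, which branches lactosamine chains, rose by 3.77. St6gal1, which caps N-glycans with sialic acid, read 6.88, 6.82, 6.94 and 7.24 in ITNK and 9.00, 9.48, 9.39 and 9.63 in DN3 and fell by 2.40 ± 0.13.

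G protein signalling genes rose more often than they fell. Of 45 G protein-coupled receptors 21 rose (46.7%) and 11 fell (24.4%, near the 28.2% of all genes). Of 27 G protein subunits and regulators 12 rose (44.4%) and 3 fell (11.1%). Over all genes 23.5% rose. P2ry14, a receptor for UDP-sugars, read 10.52, 10.86, 10.87 and 11.31 in ITNK and 7.82, 8.02, 7.93 and 7.53 in DN3 and rose by 3.06 ± 0.17. F2rl2, a thrombin receptor, was at least 8.76-fold higher and Gpr15, a homing receptor, rose by 2.98, with 1.35 at a second probe and detection on 1 of 4 DN3 arrays. The gamma subunit Gng2 was at least 11.7-fold higher at its brightest probe and rose by 0.65 at the other. Rgs1, which shuts off G alpha signals, rose by 3.55. Gpr83 fell by 2.06. Rgs4 was detected on no ITNK array and read 7.01, 5.79, 5.23 and 6.76 in DN3, at least 3.40-fold lower in ITNK and highest on the DN3 arrays with most stromal signal.

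Of 36 dual-specificity and tyrosine phosphatases 8 rose and 9 fell. Dusp6, the phosphatase that acts on ERK, read 9.96, 10.30, 9.91 and 10.25 in ITNK and 7.24, 7.04, 7.38 and 6.79 in DN3 and rose by 2.99 ± 0.15, but 0.46 and 0.48 at its other probes. The receptor phosphatase Ptprs fell by 1.93, with -1.56 and -1.09 at others. In the Ras and Rap list 12 of 38 rose and 14 fell, among them the Rap exchange factor Rapgef3 (-1.81) and the Ras exchange factor Rasgrp1 (-1.12). Lat2, a membrane adaptor related to the T cell adaptor Lat, read 9.96, 10.34, 10.49 and 10.85 in ITNK and 6.38, 6.37, 6.53 and 5.95 in DN3 and rose by 4.10 ± 0.18.

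Of 47 proteases, inhibitors and matrix genes 20 rose (42.6%) and 13 fell (27.7%). Of 26 nuclear receptors, circadian and hypoxia factors 8 rose and 5 fell. Serpina3f, a serpin whose family has several near-identical copies in the mouse, rose by 3.87 and the calpain Capn2 by 2.50. Dpp4, the peptidase CD26, fell by 1.59, from 10.97 to 11.34 down to 9.28 to 9.94. Bhlhe40, a circadian and cytokine-response repressor, read 8.72, 9.25, 8.42 and 8.81 in ITNK and 6.13, 5.75, 6.00 and 5.58 in DN3 and rose by 2.94 ± 0.22. Ppargc1b, a coactivator of mitochondrial genes, fell by 1.83. Hopx, a homeodomain protein that does not bind DNA, was at least 14.7-fold higher in ITNK.

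The remaining largest differences lay outside the lists. Lgals3, galectin-3, read 12.50, 12.63, 12.43 and 12.50 in ITNK and 8.11, 8.66, 9.09 and 7.92 in DN3, a rise of 4.07 ± 0.20. Gadd45g, a stress-response gene, rose by 4.06, Jaml, a junctional adhesion molecule, by 4.08 and Niban2 by 3.91. Ifitm1, an interferon-induced membrane protein, was at the top of the normalized scale at 14.97 on every ITNK array and at 9.09 to 12.14 in DN3, so its rise of 4.31 rests on ITNK values that quantile normalization made equal. The inhibitory receptor Havcr2 (TIM-3) was at least 11.6-fold higher, with 2.98 (log2) at a second probe. Nrp1, the co-receptor neuropilin-1, fell by 2.59, from 9.67 to 9.90 down to 6.73 to 7.74, again lower on slide 2 than on slide 1.

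Several of the largest falls followed single DN3 arrays. Prelp, a matrix proteoglycan, was detected on no ITNK array and read 8.64, 7.07, 7.74 and 8.19 in DN3, at least 9.28-fold lower in ITNK. Sox9 read 8.42, 6.48, 6.59 and 7.92 in DN3 and fell by 2.32. Mmp2, Ebf3 and Adam23 had the same pattern, highest on DN3 1 and 4. This is the order of the summed stromal signal for the 2 highest arrays, and even the lowest DN3 value of each of these genes was above every ITNK array. The class II genes were ordered otherwise. H2-Ab1 read 6.94, 7.55, 9.07 and 7.40 in DN3 and 4.91 to 5.50 in ITNK, H2-Eb1 was at least 4.80-fold and H2-Ob at least 4.62-fold lower in ITNK, and all were highest on DN3 3. The B cell marker tested, Cd79b, fell by 0.50, and the other B cell markers on the array did not reach the filter. H2-Bl, a class I relative that near-identical copies could affect, fell by 3.05.

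**Figure D5:**
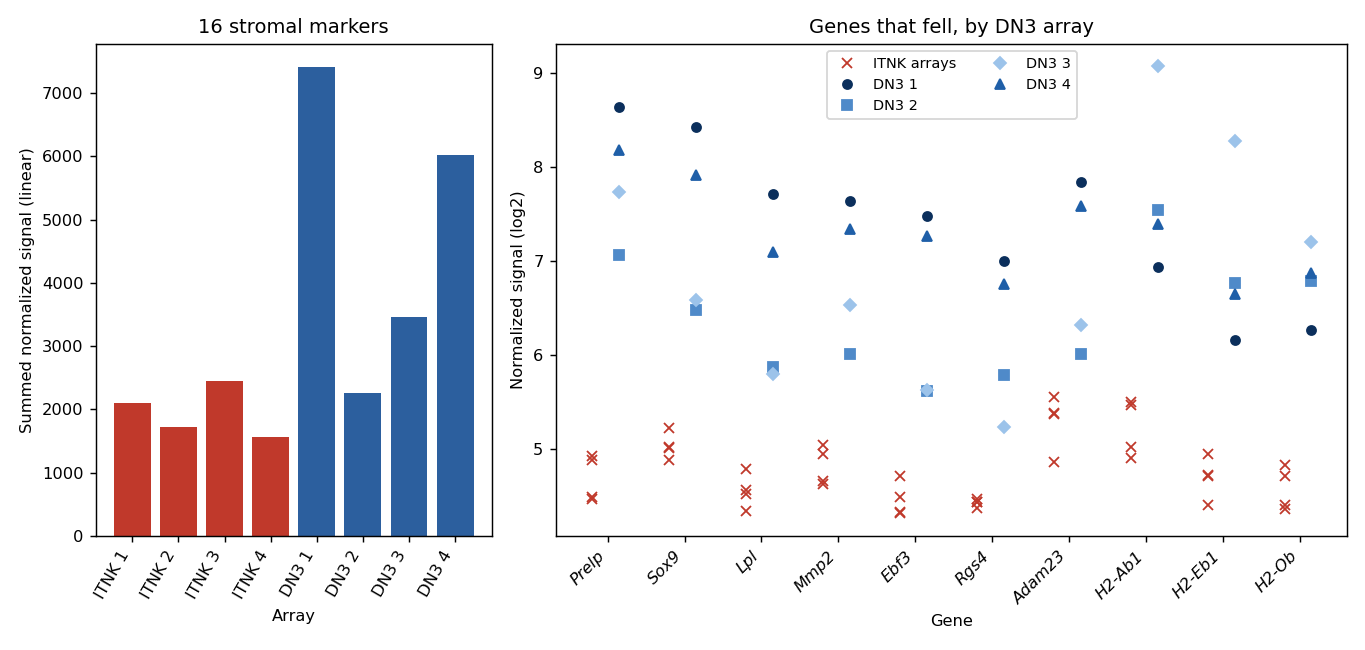
Left, summed normalized signal (linear scale) of the 16 tested stromal markers on each ITNK (red) and DN3 (blue) array. Right, normalized signal (log2) of 10 genes that fell, with ITNK arrays as crosses and each DN3 array as its own symbol. DN3 1 and 4 are highest for Prelp to Adam23 and DN3 3 is highest for the class II genes.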

How the data were processed

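RNA of 12 samples (ITNK, DN3 and LAK, 4 arrays each) was measured on Illumina mouse bead arrays. The deposited table, per its file headers, holds a signal intensity and a detection value per probe and array, not normalized. The deposited series matrix holds the authors' log2 values of the same arrays, used as an alternative. The detection value was read as a fraction that is higher for brighter probes, and its complement was used as the detection p. How the authors made either table is not given in the sources used here. Of 45281 probes 45274 had values, and 34880 had a single symbol, 18 several and 10376 none in the platform annotation.

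Intensities were background-corrected and quantile-normalized with neqc (offset 16) in limma 3.58.1 under R 4.3.3. Probes with a detection p under 0.01 on at least 4 of 12 arrays were kept (13571), so a gene could enter through a single group. A gene detected on no DN3 array entered through the ITNK or LAK arrays. The brightest probe of each gene, by its mean over all 12 arrays, was used, giving 8100 genes. That choice can favour probes that are high in ITNK and LAK. A linear model over 12 arrays gave differences, standard errors and Benjamini-Hochberg adjusted p-values over all 8100 genes. A gene detected on no array of a group has only a bound there, given as "at least N-fold". The fit was tested on simulated data.

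The rule for named genes took, in each list, up to 3 called genes with the largest rise and up to 3 with the largest fall, of at least 2-fold and with no overlap between the groups on slide 2, or the 2 largest called differences where none reached 2-fold. It added the 12 largest rises and falls and the 6 largest bounds in each direction outside the lineage lists. It gave 216 genes. Genes named outside it (Dhcr7, Lmnb1, Lmnb2, Arpc1b, Edem1 and the promoter genes with the stress element) were chosen after their values were seen. The comparison and the lists were chosen with earlier results of these data known, and some list patterns were corrected for wrong matches once probes were seen. Promoter sequences are from RefSeq (GRCm38.p6), matched by symbol. Alternatives covered background, scaling, filter, probe choice, slide and arrays left out.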

Additional observations from a re-analysis of the deposited data

Results flagged for a closer look

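In 14 of 432 groups of 4 arrays, 1 array lay apart from the other 3 by more than Dixon's 95% limit. Chance flags about 1 in 20 such groups, more than were seen. All values are normalized log2 signals. Among ITNK arrays, ITNK 2 lay apart for 4 genes. Fmnl2 read 5.39 there against 6.14 to 6.21 on the others, Psme2 7.45 against 7.86 to 7.91, S100a6 10.36 against 10.10 to 10.14 and Scin 11.40 against 11.50 to 11.51. Tspan6 read 4.99 on ITNK 4 against 5.30 to 5.32, and Vim read 12.28 on ITNK 1 against 12.05 to 12.09. Among DN3 arrays, DN3 1 read 4.99 for Gng2 against 4.37 to 4.46, 4.31 for Hopx against 4.53 to 4.57 and 4.52 for Srxn1 against 4.34 to 4.37. DN3 4 read 9.31 for Myo1g against 8.85 to 8.92, 7.38 for Plcg2 against 7.67 to 7.70 and 5.32 for Scin against 6.75 to 6.99. Pdia4 read 7.87 on DN3 2 against 7.72 to 7.74, and Nqo1 read 4.50 on DN3 3 against 4.69 to 4.72. Gng2, Hopx, Srxn1 and Nqo1 were detected on no DN3 array, so their DN3 values lie in the background. No call for these genes was lost when any single array was left out.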

How the results depend on the processing

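Genes past the test numbered 3109 to 4244 under the other settings of background, scaling, filter, probe choice and slide, against 4184 of 8100. Both ends come from other numbers of genes tested, so they do not compare directly. They were 3109 of 5846 with detection on all 12 arrays and 4244 of 19057 with no filter. Leaving out 1 array gave 3718 to 4383 genes past the test and 1015 to 1128 past it by at least 2-fold. The 2-fold count of 1055 moved to 561 with no background correction, 627 with an offset of 50, 524 with the authors' values and 537 with detection on all 12 arrays (of 5846 genes tested). The cause of the first 3 was not tested. With median scaling 72.2% of calls were higher against 45.5%, and with the authors' values 50.6%. With DN3 1 and 4 left out, an alternative chosen after seeing the data, 3184 genes passed, 1036 by at least 2-fold. Of 216 named genes 207 kept their side of the threshold under every setting that tested them and none reversed. Most of these genes were chosen for large differences on the same arrays, which favours that result. With median scaling Cdk2, Ctse, Mcm7, Pdha1, Pgls, Pold1, Psmg1, Rpl22 and Rps15a no longer passed. Detection on all 12 arrays left 127 of the 216 testable. The replicate numbers are not stated to pair the arrays. Deviations from the group means on same-numbered ITNK and DN3 arrays had correlations of 0.177, 0.209, -0.022 and 0.024. Differently numbered arrays were not compared, so these values do not settle whether the arrays are paired. With a replicate block 4024 genes passed, 1055 by at least 2-fold.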
